A study of Mus musculus with 11 samples.

Results

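The PYHIN genes, also known as the Ifi200 family, are a cluster of related mouse genes that encode proteins with a pyrin domain, a DNA-binding HIN domain or both. The members were the 8 genes *Ifi202b*, *Ifi203*, *Ifi204*, *Ifi205*, *Mnda*, *Mndal*, *Pyhin1* and *Aim2*, chosen by name, and 7 of the 8 were found by name among the 26283 genes analysed. *Pyhin1* was not analysed under that name. RefSeq lists it as a synonym of *Ifi209*, which is described below among the further genes of the family.

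HIN domains bind DNA, and pyrin domains assemble with other pyrin domains. AIM2 senses double-stranded DNA in the cytosol and recruits the adaptor ASC, the product of *Pycard*, to activate an inflammatory caspase, while the p204 protein made from *Ifi204* is regarded as a mouse counterpart of the human DNA sensor IFI16 and also binds the retinoblastoma protein. Many genes of the family are induced by interferons and are best known from macrophages and other leukocytes, and *Ifi202b* is known for a level that varies between inbred mouse strains.

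The 11 mammary tumors sequenced came from C57BL/6 mice aged 18 weeks, 6 PyMT *Pcbp1*–/– and 5 PyMT *Pcbp1*+/+. Both groups carried the MMTV-PyMT oncogene, the polyomavirus middle T antigen, and the MMTV-Cre recombinase. They differed in *Pcbp1*, which was floxed on both alleles in the first group, *Pcbp1*(fl/fl), and not floxed in the second, *Pcbp1*(wt/wt). The MMTV promoter is used to drive Cre in mammary epithelium, and whether Cre also acted in leukocytes or other cells of these bulk tumors was not measured. The mice descended from crosses of C57BL/6J with lines carrying the transgenes. No source used here says that each tumor came from a different animal, so that p-values measure the spread between these tumors.

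The deposited values were estimated counts per gene and CPM, which for genes from 1 CPM upwards lay within 0.146% of the count scaled to the total of the tumor. Totals lay between 11239931 and 14092192 counts in PyMT *Pcbp1*–/– tumors and between 10543189 and 11411776 in PyMT *Pcbp1*+/+ tumors. A gene with 3 counts, the limit that a count of 0 allows, therefore lay at 0.213 to 0.285 CPM, a range that covers counting error only. *Pcbp1*, the deleted gene, had a lowest, median and highest value of 15.4, 20.9 and 33.6 CPM in PyMT *Pcbp1*–/– tumors and, for replicates 1 to 5 of the other group, 268, 271, 225, 219.5 and 259 CPM. The groups did not overlap for *Pcbp1*, and each tumor lay on the side its label gives. *Pcbp1* fell with an adjusted p of 4.72e-06 from edgeR, at a log2 fold change of -3.43. The tissue label was checked against epithelial markers. The keratin gene *Krt8* had between 161 and 330 CPM and the adhesion gene *Epcam* between 178 and 363 CPM over the 11 tumors. They were picked from 18 luminal markers after their values were seen, and others of the 18 differed more between the groups, such as the milk protein gene *Csn3* with means of 609 CPM in PyMT *Pcbp1*–/– and 1422 CPM in PyMT *Pcbp1*+/+ tumors (adjusted p = 0.150 from edgeR).

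The members were present at low to moderate levels in every tumor, with between 5 and 497 counts per member and tumor. In 4 of the 5 PyMT *Pcbp1*+/+ tumors, *Ifi203*, *Ifi204* and *Ifi202b* each lay above all 6 PyMT *Pcbp1*–/– tumors, and in the remaining one, PyMT *Pcbp1*+/+ replicate 5, they lay within or below that group's range. *Aim2* had a mean of 1.61 CPM in PyMT *Pcbp1*–/– tumors and 1.79 CPM in PyMT *Pcbp1*+/+ tumors. No member passed the adjustment over all genes in edgeR's quasi-likelihood test with Benjamini-Hochberg adjustment.

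*Ifi203* (ENSMUSG00000039997.16, chr1:173920407-173942672 on the minus strand of GRCm38) is an interferon-inducible gene whose product has both domains. It had 8.23, 10.25 and 22.1 CPM as lowest, median and highest value in PyMT *Pcbp1*–/– tumors and, for replicates 1 to 5 of the other group, 34.2, 26.1, 43.5, 35.2 and 8.04 CPM. The high value of the first group was that of replicate 6, and the lowest value of all was that of PyMT *Pcbp1*+/+ replicate 5, so the groups overlapped through that tumor alone. The means were 12.5 ± 5.10 CPM (SD, n = 6) and 29.4 ± 13.45 CPM (SD, n = 5). EdgeR gave a log2 fold change of -1.22 with standard error 0.36 and an adjusted p of 0.0992. In bulk tumors, fewer cells of a type and less RNA per cell cannot be told apart, for this and every other gene.

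*Ifi202b* (ENSMUSG00000026535.9, chr1:173962568-173982744, minus strand) encodes a protein with HIN domains and no pyrin domain, which is known to bind DNA and to restrain AIM2. Its lowest, median and highest values in PyMT *Pcbp1*–/– tumors were 0.712, 1.21 and 2.78 CPM. Replicates 1 to 5 of the PyMT *Pcbp1*+/+ group had 6.67, 8.25, 3.51, 5.01 and 1.07 CPM. The highest tumor was PyMT *Pcbp1*+/+ replicate 2, unlike for the other members, and the overlap again came from replicate 5 of that group. The adjusted p of 0.0636 from edgeR was the lowest among the members, at a log2 fold change of -1.79 with standard error 0.46.

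*Ifi204* (ENSMUSG00000073489.6, chr1:173747293-173766943, minus strand), the gene for p204, had 1.423, 2.15 and 4.33 CPM as lowest, median and highest value in PyMT *Pcbp1*–/– tumors and, for replicates 1 to 5 of the other group, 5.66, 5.41, 9.64, 5.56 and 1.88 CPM. PyMT *Pcbp1*+/+ replicate 3 was the highest tumor, and replicate 5 of that group lay below the PyMT *Pcbp1*–/– median. The adjusted p from edgeR was 0.128, at a log2 fold change of -1.19 with standard error 0.39.

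*Mndal* (ENSMUSG00000090272.8, chr1:173849126-173942491, minus strand) is named for its likeness to *Mnda*, the namesake of a human nuclear antigen of myeloid cells. It had 1.14, 2.29 and 5.72 CPM as lowest, median and highest value in PyMT *Pcbp1*–/– tumors and, for replicates 1 to 5 of the other group, 5.76, 3.79, 9.29, 9.66 and 1.79 CPM. Here the highest PyMT *Pcbp1*–/– tumor, replicate 6, lay just below PyMT *Pcbp1*+/+ replicate 1. For *Mndal* edgeR's estimate was -1.18 on the log2 scale, with standard error 0.45 and adjusted p = 0.183. The gene model used for *Mndal* overlaps that of *Ifi203* by 22085 bases and that of *Mnda* by 16702 bases on the same strand, so that reads from the shared stretches could be assigned to either model and the values of all 3 genes are uncertain. Counting *Ifi203* and *Mndal* as 1 gene, which was tried once their values were known, gave a log2 fold change of -1.22 and an adjusted p of 0.110 in edgeR (chosen after seeing the data).

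The other 3 members had values from 0.447 to 4.38 CPM. *Ifi205* (ENSMUSG00000054203.7, chr1:174011998-174031810, minus strand) had 0.923, 1.10 and 2.40 CPM as lowest, median and highest value in PyMT *Pcbp1*–/– tumors and, for replicates 1 to 5 of the other group, 2.56, 0.854, 4.38, 2.10 and 1.07 CPM. *Mnda* (ENSMUSG00000026536.9, chr1:173896345-173913046, minus strand), which RefSeq now names *Ifi211*, had 0.852, 0.947 and 1.10 CPM and 1.92, 1.61, 2.45, 0.911 and 0.714 CPM, given in the same order. Replicates 2, 4 and 5 of the PyMT *Pcbp1*+/+ group lay within or below the range of the other group for *Ifi205*, and replicates 4 and 5 did for *Mnda*. The log2 fold changes were -0.77 for *Ifi205* (adjusted p = 0.350 from edgeR) and -0.67 for *Mnda* (adjusted p = 0.269 from edgeR). Without PyMT *Pcbp1*+/+ replicate 3 they were -0.29 and -0.38.

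*Aim2* (ENSMUSG00000037860.15, chr1:173350879-173466040, plus strand), the inflammasome sensor, had 0.585, 1.58 and 2.32 CPM as lowest, median and highest value in PyMT *Pcbp1*–/– tumors and, for replicates 1 to 5 of the other group, 1.55, 1.61, 3.42, 1.91 and 0.447 CPM. Only PyMT *Pcbp1*+/+ replicate 3 lay above the highest PyMT *Pcbp1*–/– tumor, and the lowest tumor of all was PyMT *Pcbp1*+/+ replicate 5. EdgeR's log2 fold change was -0.17, with standard error 0.44 and adjusted p = 0.868. It turned to 0.26 without PyMT *Pcbp1*+/+ replicate 3 and to 0.00301 without PyMT *Pcbp1*–/– replicate 4.

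**Figure D1:**
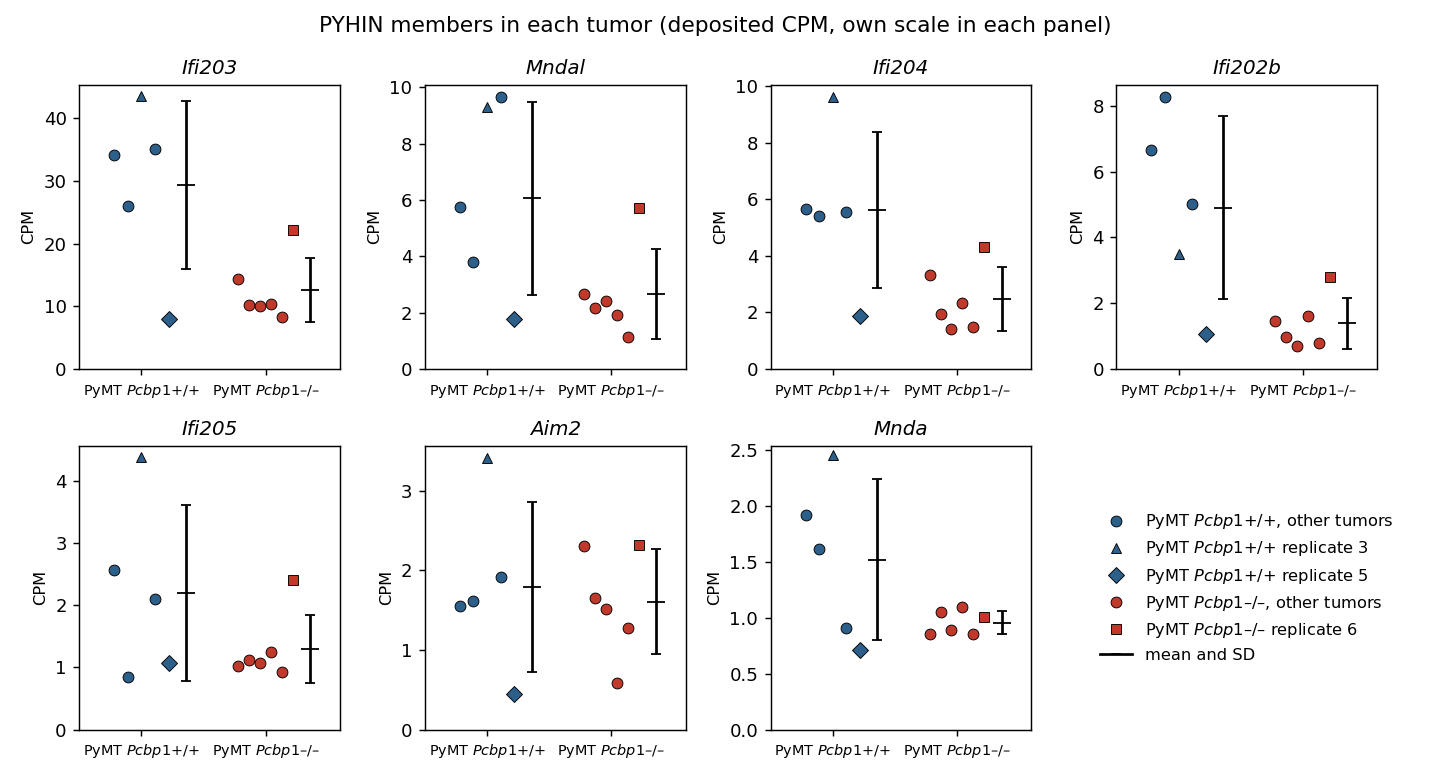
Deposited CPM of the 7 members found (vertical axis, from 0, own scale in each panel) in the 5 PyMT *Pcbp1*+/+ and 6 PyMT *Pcbp1*–/– tumors, 1 point per tumor, with the mean and SD of each group as a black bar. PyMT *Pcbp1*+/+ replicate 5 (diamonds) lies with the PyMT *Pcbp1*–/– tumors, as for *Ifi203* at 8.04 CPM, and PyMT *Pcbp1*–/– replicate 6 (squares) is the highest of its group for 6 of the 7 members.

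Over the family, 0 of the 7 members were called lower at an adjusted p under 0.05 by edgeR, where 1.66% of the 19232 genes tested were called lower. At an unadjusted p under 0.05, 4 of the 7 were lower (*Ifi202b*, *Ifi203*, *Ifi204* and *Mndal*), against 10.53% of all genes tested. DESeq2 called 2 of the 7, *Ifi202b* and *Ifi203*, where it called 3.96% of genes lower. Limma-voom with sample quality weights called 4 of the 7, the same genes as those with an unadjusted p under 0.05 in edgeR, where it called 6.19% of genes lower. Limma on log2 CPM with a pseudocount of 1 or of 0.1 called 0 of the 7, where it called 1.12% and 0.993% of genes lower. The groups did not overlap for 0 of the 7 members, while they did not overlap, with PyMT *Pcbp1*–/– lower, for 2.02% of all genes tested.

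The calls depended on single tumors. Without PyMT *Pcbp1*+/+ replicate 5, edgeR called *Ifi202b* (log2 fold change -2.04, adjusted p = 0.0154) and *Ifi203* (log2 fold change -1.46, adjusted p = 0.0157), where 1.65% of all genes were called lower. Without PyMT *Pcbp1*–/– replicate 6, it called *Ifi202b* (log2 fold change -2.12, adjusted p = 0.0438), against 1.12% of all genes. Without PyMT *Pcbp1*+/+ replicate 3, it called 0 of the 7, against 0.946% of all genes called lower. At an unadjusted p under 0.05, 3 of the 7 were lower in that fit, against 9.28% of all genes, and the median log2 fold change of the members was -0.85. Over all alternatives run, the adjusted p ranged from 0.00628 to 0.133 for *Ifi202b* and from 0.0157 to 0.215 for *Ifi203*. With all 11 tumors, the 7 members had a negative log2 fold change with every scaling tried, TMM factors, library size alone, upper-quartile factors and the size factors of DESeq2. Their median was -1.18, beside -0.000123 over all genes tested, of which 50% were negative.

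The summed level of the members had a lowest, median and highest value of 14.7, 19.1 and 40.7 CPM in PyMT *Pcbp1*–/– tumors and was 58.3, 47.6, 76.2, 60.3 and 15 CPM for replicates 1 to 5 of the PyMT *Pcbp1*+/+ group. Replicate 5 of the PyMT *Pcbp1*+/+ group thus lay at the bottom of the other group's range. *Ifi203* took a steady share of this sum, between 53.3% and 58.6% in each tumor, not corrected for gene length. The share of *Ifi202b* was less steady and ran from 3.94% to 17.3%, the latter in PyMT *Pcbp1*+/+ replicate 2.

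Per length of the joined exons, *Ifi203* was the most abundant member in PyMT *Pcbp1*+/+ tumors with 3.87 ± 1.77 CPM per kilobase (SD, n = 5). *Ifi202b* followed with 2.72 ± 1.55, *Ifi204* with 1.54 ± 0.751, *Mndal* with 1.48 ± 0.835, *Mnda* with 0.810 ± 0.382, *Ifi205* with 0.513 ± 0.331 and *Aim2* with 0.272 ± 0.162 CPM per kilobase (SD, n = 5). Each neighbouring pair in that order differed by less than the SD of its higher member. In PyMT *Pcbp1*–/– tumors the order of the members was the same, with *Ifi203* at 1.65 ± 0.672 and *Ifi202b* at 0.769 ± 0.430 CPM per kilobase (SD, n = 6), a step larger than either SD. There the step from *Mnda* at 0.510 ± 0.0567 to *Ifi205* at 0.304 ± 0.129 CPM per kilobase (SD, n = 6) was also larger than either SD.

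Further genes of the family lie in the same cluster. *Ifi208*, an interferon-inducible gene, had 0.0710, 0.444 and 1.01 CPM as lowest, median and highest value in PyMT *Pcbp1*–/– tumors and, for replicates 1 to 5 of the other group, 1.65, 0.948, 3.24, 2.10 and 0.447 CPM. EdgeR estimated its log2 fold change at -1.81, with standard error 0.58 and adjusted p = 0.125. *Ifi209*, the gene that carries the synonym *Pyhin1*, had 0.585, 0.951 and 2.01 CPM in the first group and 2.65, 1.04, 5.61, 2.73 and 1.07 CPM in the second, given in the same order. For *Ifi209*, 4 of the 6 PyMT *Pcbp1*–/– tumors lay below the lowest PyMT *Pcbp1*+/+ tumor. In edgeR it had an adjusted p of 0.182 at a log2 fold change of -1.22, which was -0.67 without PyMT *Pcbp1*+/+ replicate 3. *Ifi213*, *Ifi207* and the pseudogene *Ifi203-ps* had log2 fold changes of -1.32, -0.54 and -0.88, the latter 2 of which were -0.30 and -0.53 without PyMT *Pcbp1*+/+ replicate 3. Of these 5 genes, edgeR called 0, an unadjusted p under 0.05 was reached by 3 (*Ifi208*, *Ifi209* and *Ifi213*), limma on log2 CPM called 0, and limma-voom with sample quality weights called 2. Over all genes, 10.53% were lower at an unadjusted p under 0.05 and 6.19% were called lower by limma-voom. DESeq2 called 0 of the 4 for which it gave an adjusted p, and it gave none for *Ifi208*. *Ifi214* was too low to be tested, with 0 to 1.40 CPM.

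Over the 12 genes of the family that were tested, PyMT *Pcbp1*+/+ replicate 3 was the highest of the 11 tumors for 10, beside 3.7% of all genes tested. PyMT *Pcbp1*+/+ replicate 5 was the lowest of its group for 10 (26.9% of all genes), and PyMT *Pcbp1*–/– replicate 6 the highest of its group for 10 (14.8% of all genes). The genes that departed from this order among the members were *Ifi202b*, *Mndal*, *Ifi205* and *Mnda*.

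Members of this family are close copies, and how reads that match several copies were counted is not given in the sources used here. In the transcripts of GENCODE vM39, a later annotation, 68.5% of the distinct 50-base stretches of *Mnda* also occurred in another gene of the family, mostly in *Ifi205*. The share was 33.8% for *Ifi209*, 19.7% for *Ifi204*, 18.3% for *Ifi205*, 18.1% for *Mndal* and 12.5% for *Ifi203*. It was 0 of 1752 stretches for *Ifi202b* and 0 of 6945 for *Aim2*, so that the members with the largest and the smallest log2 fold change were those without shared stretches of this length. The estimated counts of all genes of the family were whole numbers in every tumor.

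The members lie between positions 173350879 and 174031810 of chromosome 1, a span of 680.9 kb that 15 of the analysed genes overlap. Of these, 13 carry the name of a PYHIN gene and 12 of the 13 were tested. Another, RP23-85A8.1, has the identifier that GENCODE vM39 gives to *Ifi206*, a further gene of the family, and was too low to be tested, with 0.179 to 2.37 CPM. The remaining gene, *Cadm3*, encodes a cell adhesion molecule and overlaps *Aim2* by 16817 bases on the opposite strand. Its adjusted p from edgeR was 0.697, at a log2 fold change of 0.39. With all 11 tumors, the 12 genes of the family that were tested had a negative log2 fold change, while among the 5 nearest tested protein-coding genes on either side 4 of 10 did, with a median of 0.01. Of these 10 neighbours edgeR called 0, and an unadjusted p under 0.05 was reached by 2, *Fmn2* (log2 fold change -1.85) and *Opn3* (0.61). At that threshold, 10.53% of all genes were lower and 8.19% higher. DESeq2 called 1 lower gene of the 9 for which it gave an adjusted p, against 3.96% of all genes. Limma-voom with sample quality weights called 1 higher gene, against 5.03% of all genes, and limma on log2 CPM called 0. *Fmn2*, which codes for an actin-nucleating formin, had 40.4 CPM in PyMT *Pcbp1*+/+ replicate 2 and at most 9.29 CPM in the other tumors.

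**Figure D2:**
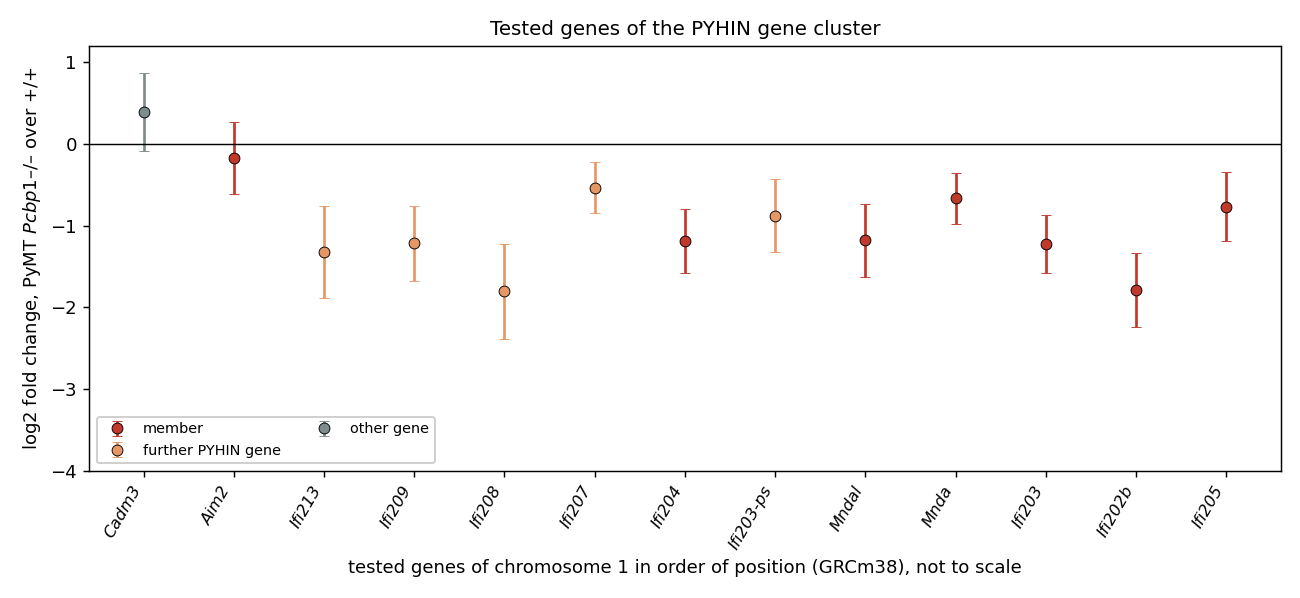
Log2 fold change of PyMT *Pcbp1*–/– over PyMT *Pcbp1*+/+ tumors (vertical axis) with its standard error (bars) from edgeR, for the tested genes of the PYHIN cluster in order of position along chromosome 1 of GRCm38 (horizontal axis, not to scale). The 12 PYHIN genes lie between -1.81 and -0.17, and *Cadm3*, the other gene shown, lies at 0.39.

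Promoter sequences were available from RefSeq (GRCm38.p6, 250 bases before to 50 after the first transcribed base) for 11 of the 13 genes of the family, with no entry for *Ifi204* and *Ifi203-ps*. They were searched on both strands for the core of the interferon-stimulated response element, GAAANNGAAA, and for the core of the gamma-activated site, TTCNNNGAA. The first core was found in 8 of the 11 genes, among them 4 of 6 members, and in 3.99% of the 27025 genes of the table. The second was found in *Ifi202b* alone of the 11 genes and in 9.55% of all genes. Over the 32851 promoters, of which a gene can have several, the shares were 3.44% and 8.30%. A match of letters is a description of the sequence and not a binding site.

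In 6 of the 8 genes the core had the letters GAAATCGAAA, which occurred in 0.0487% of all promoters, and in *Ifi205* and *Mnda* it had the letters GAAATTGAAA, which occurred in 0.116%. These matches began between 35 and 134 bases before the first transcribed base of the promoter in which they lie. Those of *Ifi203* and *Mndal* lie within the deposited models of these genes. On the other strand, *Ifi205* had a further match, TTTCACTTTC, 23 bases after its start, and the other of the 2 promoters of *Mndal* had TTTCTCTTTC 54 bases before its start. *Ifi203* has 2 promoters, and the other held no match. The 40 bases around the matches with these letters are shown for the 8 genes because they display how far the copies extend beyond the motif, which is in capitals. They read 5′ to 3′ on the strand of the gene.
Ifi203 (chr1:173942503-173942542, minus strand): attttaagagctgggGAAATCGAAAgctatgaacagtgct
Mndal (chr1:173880199-173880238, minus strand): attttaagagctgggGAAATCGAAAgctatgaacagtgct
Mnda (chr1:173913059-173913098, minus strand): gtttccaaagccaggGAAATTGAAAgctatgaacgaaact
Ifi205 (chr1:174031865-174031904, minus strand): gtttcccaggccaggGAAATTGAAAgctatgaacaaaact
Ifi207 (chr1:173741826-173741865, minus strand): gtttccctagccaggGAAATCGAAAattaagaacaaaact
Ifi208 (chr1:173673592-173673631, plus strand): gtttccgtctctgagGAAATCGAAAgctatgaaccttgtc
Ifi213 (chr1:173599321-173599360, minus strand): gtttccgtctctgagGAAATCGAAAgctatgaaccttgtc
Ifi214 (chr1:173536012-173536051, minus strand): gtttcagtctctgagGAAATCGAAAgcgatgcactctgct

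The 40 bases were the same in *Ifi203* and *Mndal* and the same in *Ifi208* and *Ifi213*. *Aim2*, *Ifi202b* and *Ifi209* held no match of this core in the window. The whole promoters of 3 members are given because *Ifi203* was the most abundant, *Ifi202b* had the largest and *Aim2* the smallest log2 fold change among the members, a choice made after their values were seen. Capitals mark the first core in *Ifi203* and the second in *Ifi202b*, and *Aim2* has none.
Ifi203 (chr1:173942443-173942742, minus strand): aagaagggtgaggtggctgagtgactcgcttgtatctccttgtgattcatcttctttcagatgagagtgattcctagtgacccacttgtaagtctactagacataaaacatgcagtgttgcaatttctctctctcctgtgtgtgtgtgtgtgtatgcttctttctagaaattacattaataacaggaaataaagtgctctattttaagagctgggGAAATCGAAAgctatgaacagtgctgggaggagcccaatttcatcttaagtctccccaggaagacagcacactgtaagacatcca
Ifi202b (chr1:173982795-173983094, minus strand): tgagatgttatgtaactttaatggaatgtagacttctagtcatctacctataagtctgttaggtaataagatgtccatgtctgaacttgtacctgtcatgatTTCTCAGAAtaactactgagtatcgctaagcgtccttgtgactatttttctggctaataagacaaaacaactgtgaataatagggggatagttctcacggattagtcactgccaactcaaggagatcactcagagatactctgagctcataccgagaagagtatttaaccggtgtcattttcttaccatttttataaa
Aim2 (chr1:173420354-173420653, plus strand): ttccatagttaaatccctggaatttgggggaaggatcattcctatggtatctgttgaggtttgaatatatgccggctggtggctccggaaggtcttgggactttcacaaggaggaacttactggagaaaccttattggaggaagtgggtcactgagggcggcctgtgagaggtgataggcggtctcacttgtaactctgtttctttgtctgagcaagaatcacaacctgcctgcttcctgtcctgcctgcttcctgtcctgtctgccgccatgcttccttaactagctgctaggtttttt

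The genes most like each member in their pattern were sought over the 11 tumors after the mean of each genotype was subtracted, as a description of tumors whose labels give the same batch. For *Ifi203* they were *Trim30a* (Pearson r = 0.977, Spearman rho = 0.982), *Trim34a*, *Slfn5*, *Islr* and *Ddx60*, and for *Mndal* they were *Kcnn3*, *Islr*, *Rnase6*, *Cilp* and *Cygb*, of which *Kcnn3* had an r of 0.972 and a rho of 0.855. *Ifi204* was most like *Fam26e* (r = 0.9415, rho = 0.9455), RP23-271B15.4, *Fgl2*, RP24-196H4.1 and *Ddx60*. *Ifi205* was most like *Ptafr* (r = 0.972, rho = 0.982), *Pi16*, *Oas1c*, *Rassf2* and *Dpep1*, and *Mnda* was most like a processed pseudogene (r = 0.885, rho = 0.900), *Tdrd7*, *Helz2*, RP23-118B13.1 and *Zfp800*. *Aim2* was most like *Rarres2* (r = 0.945, rho = 0.9455), *Irf8*, which codes for a transcription factor of myeloid cells, an unprocessed pseudogene, the macrophage gene *Adgre1* and *C1ra*. *Ifi202b* and *Mnda* were less like the rest of the family. The genes closest to *Ifi202b* were *Selm* (r = 0.945, rho = 0.918), RP23-180C14.1, *Magi2*, RP23-242C11.1 and *Zfp334*, and its median r to the other 11 genes of the family was 0.474. This median was 0.502 for *Mnda*, whose highest r within the family was 0.668, and between 0.711 and 0.819 for the other 5 members. Without the 2 tumors farthest from the median, the r of each member with its closest gene lay between 0.812, for *Mnda*, and 0.954, for *Ifi205*. Over all 35 pairs the lowest was 0.557, for *Mnda* with *Helz2*. Each pair was picked for its high r over these same tumors, so these values cannot serve as an independent check of the likeness.

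Of 20 tested AIM2 inflammasome genes, which act downstream of AIM2 or beside it, edgeR called 0, an unadjusted p under 0.05 was reached by 1 lower and 1 higher gene, DESeq2 and limma-voom with sample quality weights each called 1 lower gene, and limma on log2 CPM called 0. DESeq2 gave an adjusted p for 19 of the 20. Over all genes, 10.53% were lower and 8.19% higher at an unadjusted p under 0.05, and DESeq2 called 3.96% lower and limma-voom with sample quality weights 6.19%. Without PyMT *Pcbp1*+/+ replicate 2 edgeR called 1 lower gene of the list and 1.82% of all genes. The median log2 fold change was -0.00912 with 10 of 20 negative. *Pycard*, the adaptor gene, had 37.7 and 31.2 CPM on average in PyMT *Pcbp1*–/– and PyMT *Pcbp1*+/+ tumors (adjusted p = 0.301 from edgeR) and *Casp1*, the caspase gene, 7.61 and 5.96 CPM (adjusted p = 0.208 from edgeR). *Il1b* had 1.86 and 2.82 CPM (adjusted p = 0.4275 from edgeR) and the pore gene *Gsdmd* 2.35 and 2.67 CPM (adjusted p = 0.8255 from edgeR). *Il18* was too low to be tested, with at most 1.025 CPM in any tumor.

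Among 24 other cytosolic DNA sensors and nucleases, edgeR called 2 lower and 0 higher, beside 1.66% lower of all genes, with 14 negative and a median of -0.0536. DESeq2 and limma on log2 CPM also called 2 lower, against 3.96% of all genes for DESeq2. For limma the shares of all genes were 1.12% with a pseudocount of 1 and 0.993% with 0.1. Limma-voom with sample quality weights called 3 lower, against 6.19% of all genes. Leaving out each tumor in turn, edgeR called 2 without PyMT *Pcbp1*–/– replicate 2 or PyMT *Pcbp1*+/+ replicates 2 or 5, and 1 without any other tumor. The genes called with all tumors were the nucleic acid sensor *Zbp1*, which fell (log2 fold change -1.49, edgeR adjusted p = 0.00504), and the DNA exonuclease *Trex1*, which also fell (log2 fold change -0.71, edgeR adjusted p = 0.0301). The groups did not overlap for either gene, as for 2.02% of all genes tested with PyMT *Pcbp1*–/– lower. The cGAS gene *Mb21d1* had 6.53 CPM on average in PyMT *Pcbp1*–/– and 5.91 CPM in PyMT *Pcbp1*+/+ tumors (adjusted p = 0.743 from edgeR), and the STING gene *Tmem173* had 17.0 and 20.8 CPM (adjusted p = 0.499 from edgeR).

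Among 21 tested genes of interferon signal transduction, which carry or restrain the signal that induces the family, edgeR called 4 lower and 0 higher, beside 1.66% lower of all genes, with 16 negative and a median of -0.228, which ranged from -0.303 to -0.0551 with each tumor left out. DESeq2 called 7 lower, limma-voom with sample quality weights 6, and limma on log2 CPM 3 with a pseudocount of 1 and 2 with 0.1. EdgeR called 2 without PyMT *Pcbp1*–/– replicates 3, 4 or 5 or PyMT *Pcbp1*+/+ replicates 3 or 4, and between 3 and 5 without any other tumor. *Irf7*, a transcription factor that amplifies interferon responses, had 11.4, 14.4 and 22.3 CPM as lowest, median and highest value in PyMT *Pcbp1*–/– tumors and, for replicates 1 to 5 of the other group, 125, 114, 155, 158 and 40.0 CPM. Its groups did not overlap, as for 2.02% of all genes tested with PyMT *Pcbp1*–/– lower. Replicate 5 of the PyMT *Pcbp1*+/+ group was the lowest of that group here too. *Irf7* fell (log2 fold change -2.89, edgeR adjusted p = 0.00194). The others called were *Stat2*, *Irf9* and *Usp18*, with log2 fold changes of -1.418, -0.85 and -1.63. *Irf1* and *Irf8* had adjusted p values of 0.9705 and 0.631 from edgeR.

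Of 13 tested myeloid regulators, edgeR called 2 lower and 0 higher, beside 1.66% lower of all genes, with 9 negative and a median of -0.268, which ranged from -0.397 to -0.0515 with each tumor left out. DESeq2 called 3 lower, limma-voom with sample quality weights 4 and limma on log2 CPM 2. EdgeR called 1 without PyMT *Pcbp1*+/+ replicate 3 and 3 without PyMT *Pcbp1*+/+ replicate 2. Among those called was *Csf2ra*, a cytokine receptor gene (log2 fold change -0.95, adjusted p = 0.00728 from edgeR). *Spi1*, which codes for the myeloid factor PU.1, had 5.86 and 5.21 CPM on average in PyMT *Pcbp1*–/– and PyMT *Pcbp1*+/+ tumors (adjusted p = 0.772 from edgeR). Of 19 tested partners and targets of the family in growth control, such as *Rb1* and *Cdkn1a*, edgeR called 0, 4 were higher and 0 lower at an unadjusted p under 0.05, DESeq2 and limma on log2 CPM called 0, and limma-voom with sample quality weights called 3 higher. Over all genes, 8.19% were higher at an unadjusted p under 0.05, and 5.03% were called higher by limma-voom with sample quality weights. EdgeR called 2 of the list higher without PyMT *Pcbp1*+/+ replicate 2, and 0.959% of all genes. The median of the list was 0.03, and ranged from -0.0157 without PyMT *Pcbp1*–/– replicate 1 to 0.174 without PyMT *Pcbp1*+/+ replicate 2.

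Because the family is best known from leukocytes, marker genes of cell types were set beside it. The 8 leukocyte markers, led by *Cytip*, summed to 199, 190, 209, 188, 134 and 214 CPM for replicates 1 to 6 of the PyMT *Pcbp1*–/– group and to 238, 159, 215, 242 and 144 CPM for replicates 1 to 5 of the PyMT *Pcbp1*+/+ group. *Ptprc*, the pan-leukocyte gene among them, had 19.1 CPM in PyMT *Pcbp1*+/+ replicate 5 and 61.8 CPM in replicate 3, the low and the high end of all 11 tumors. Of the other leukocyte markers, 1 of 7, *Rac2*, had both ends in these tumors. The sum was highest in PyMT *Pcbp1*+/+ replicate 4 and lowest in PyMT *Pcbp1*–/– replicate 5. *Cytip*, with a mean of 97.7 CPM, weighs heavily in it, at 135 CPM in the former tumor and 69.8 CPM in the latter. Its lowest value in the PyMT *Pcbp1*+/+ group was 78.3 CPM, in replicate 3. Except for *Arhgdib* and *Cytip*, each leukocyte marker had its lowest PyMT *Pcbp1*+/+ value in replicate 5. EdgeR called 0 of the 8, and so did an unadjusted p under 0.05, DESeq2, limma-voom with sample quality weights and limma on log2 CPM.

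The 16 macrophage markers summed to 824, 643, 715, 581, 575 and 710 CPM for replicates 1 to 6 of the PyMT *Pcbp1*–/– group and to 1002, 669, 785, 674 and 565 CPM for replicates 1 to 5 of the PyMT *Pcbp1*+/+ group. EdgeR called 2 lower, among them *Cd14*, beside 1.66% of all genes, while 5 of the 16 were negative and the median log2 fold change was 0.19. That median ranged from 0.0348 to 0.347 with each tumor left out. DESeq2 called 2 lower and 1 higher of 15 with an adjusted p, against 3.96% lower and 2.63% higher of all genes. Limma-voom with sample quality weights called 1 lower and 1 higher, near its 6.19% and 5.03% of all genes. Limma on log2 CPM called 1 lower, against 1.12% of all genes with a pseudocount of 1 and 0.993% with 0.1. With each tumor left out, edgeR called 2 lower without PyMT *Pcbp1*+/+ replicates 4 or 5 and 1 lower without any other tumor. It called 1 higher without PyMT *Pcbp1*+/+ replicate 3, where 0.211% of all genes were called higher. *Csf1r*, the receptor that defines macrophages, had 34.1 and 28.9 CPM on average in PyMT *Pcbp1*–/– and PyMT *Pcbp1*+/+ tumors (adjusted p = 0.614 from edgeR). Of the B cell markers 4 of 8 were analysed, led by *Ighm*. They summed to 8.37, 7.87, 5.34, 4.83, 3.97 and 22.8 CPM for replicates 1 to 6 of the PyMT *Pcbp1*–/– group and to 5.85, 3.23, 36.4, 10.7 and 4.38 CPM for replicates 1 to 5 of the PyMT *Pcbp1*+/+ group, so that the tumors with the highest summed members in each group, PyMT *Pcbp1*–/– replicate 6 and PyMT *Pcbp1*+/+ replicate 3, were also the highest for these markers. These tumors were likewise the highest of their groups for the summed adipocyte markers (94.6 and 190 CPM) and dendritic cell markers (29.1 and 27.2 CPM). For no other cell type summed here were both the highest of their group. EdgeR called 0 of the 1 B cell gene that could be tested, and so did an unadjusted p under 0.05, DESeq2, limma-voom with sample quality weights and limma on log2 CPM. The part of leukocyte content in the PYHIN values was not tested.

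For the other cell types the marker genes were summed in the same way. The summed level in PyMT *Pcbp1*–/– and PyMT *Pcbp1*+/+ tumors was 21.1 ± 6.65 and 21.1 ± 5.98 CPM for dendritic cells, 10.6 ± 2.92 and 11.7 ± 3.99 CPM for T and NK cells and 2.99 ± 1.21 and 3.75 ± 2.88 CPM for neutrophils (SD, n = 6 and n = 5). It was 3417 ± 402 and 4259 ± 1257 CPM for luminal epithelium, 490 ± 174 and 538 ± 415 CPM for basal epithelium, 82.2 ± 24.8 and 98.0 ± 19.5 CPM for endothelium, 686 ± 194 and 568 ± 162 CPM for fibroblasts and 66.2 ± 23.0 and 86.7 ± 59.0 CPM for adipocytes (SD, n = 6 and n = 5). EdgeR called 0 genes of these lists with all tumors, and 2 lower luminal genes without PyMT *Pcbp1*+/+ replicate 2, beside 1.82% lower of all genes. At an unadjusted p under 0.05 there were 1 lower dendritic cell gene, 1 lower basal gene and 2 lower and 1 higher luminal genes, and 0 in the other lists. DESeq2 called 1 lower luminal gene and gave an adjusted p for 4 of 6 dendritic cell, 5 of 6 T and NK cell and 8 of 9 basal genes. Limma-voom with sample quality weights called 1 lower dendritic cell gene and 3 lower and 1 higher luminal genes, and limma on log2 CPM called 0. Over all genes, 10.53% were lower and 8.19% higher at an unadjusted p under 0.05. DESeq2 called 3.96% of all genes lower, and limma-voom with sample quality weights 6.19% lower and 5.03% higher. The log2 fold change was negative for 7 of 7 adipocyte genes (median -0.79), 8 of 8 endothelial genes (median -0.27) and 1 of 8 fibroblast genes (median 0.24). With PyMT *Pcbp1*+/+ replicate 3, which had 190 CPM of adipocyte markers, left out, 1 of the 7 adipocyte genes was negative (median 0.55) and the mean of that group was 60.9 CPM. The basal markers had 1246 CPM in PyMT *Pcbp1*+/+ replicate 1, without which the mean of that group was 361 CPM and the median of the basal genes was 0.53. The neutrophil markers had 8.63 CPM in PyMT *Pcbp1*+/+ replicate 2, without which the mean of that group was 2.53 CPM, below that of the other group. With all tumors, the log2 fold change was negative for 12 of 18 luminal genes (median -0.0689), 5 of 9 basal genes (median -0.0401), 3 of 6 dendritic cell genes (median -0.0491), 4 of 6 T and NK cell genes (median -0.0999) and the 1 neutrophil gene tested (-0.34). With each tumor left out, the neutrophil gene ranged from -0.536 to -0.0930 and the fibroblast median from 0.0917 to 0.384. The medians of the luminal, basal, dendritic cell and T and NK cell genes changed sign when some single tumors were left out. The part of these cell types in the PYHIN values was not tested.

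Single tumors changed which members passed the test, and the cause of the low values in PyMT *Pcbp1*+/+ replicate 5 was not tested. Counts of the members other than *Ifi202b* and *Aim2*, and of the further genes of the family, are uncertain because of overlapping models or shared sequence. The model of *Aim2* overlaps that of *Cadm3* on the opposite strand, and whether counting used the strand is not given in the sources used here.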

How the data were processed

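The authors extracted RNA from tumors with Trizol, prepared poly(A)-enriched stranded libraries, with the same batch in all 11 labels, sequenced them paired-end, aligned the reads to GRCm38 with Bowtie2 and quantified genes in Partek Flow; annotation release and counting method are not given in the sources used here. The authors deposited each estimated count per gene, not whole in 15.3% to 16.7% of values (tolerance 0.001), and CPM, which departed from the count over its column total by at most 0.146% for genes from 1 CPM upwards. The counts, rounded, went into edgeR 4.0.16 in R 4.3.3 (TMM factors, default filter on low counts, quasi-likelihood test with genotype as the only term, Benjamini-Hochberg adjustment over all genes tested). The Gene Specific Analysis of the study was not run here. Alternatives used DESeq2 1.42.0, limma 3.58.1, other scalings and filters, a replicate block and each tumor left out. Deposited stops lie 1 base past the end, so ends were taken 1 base earlier. Exon lengths came from GENCODE vM39 by identifier, without coordinates. Likeness used log2 TMM-scaled CPM with a prior count of 2.

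The rule for named genes took all members, further PYHIN genes, *Pcbp1*, the genes of the cluster with 5 neighbours on each side, up to 6 called genes per list with some fixed genes, and the 5 genes most like each member. *Krt8*, *Epcam*, *Csn3*, *Rac2*, *Rb1* and *Cdkn1a* were named outside this rule, as checks of the tissue or examples of a list, after their values were seen. Some genes that the rule covers are not reported here. The members and lists were chosen with earlier results of these data known.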

Additional observations from a re-analysis of the deposited data

Results flagged for a closer look

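In 8 of 54 sets of values of a genotype, the highest or lowest tumor stood apart from the rest, judged by its gap to the nearest tumor over the range. A rate of 1 in 20 sets would give 2.7. The sets come from the same tumors and are not independent, so 8 beside 2.7 is not a test of an excess. Among the PYHIN genes, PyMT *Pcbp1*–/– replicate 6 was far above its group for *Ifi205* (2.397 CPM, nearest 1.243 CPM) and for *Mndal* (5.721 CPM, nearest 2.648 CPM). The same tumor was high in the summed B cell markers (22.81 CPM, nearest 8.372 CPM), and so was PyMT *Pcbp1*+/+ replicate 3 (36.36 CPM, nearest 10.66 CPM). The summed leukocyte markers were low in PyMT *Pcbp1*–/– replicate 5 (134.3 CPM, next 188.4 CPM), as were the luminal epithelial markers in replicate 1 of that group (2638 CPM, next 3410 CPM). Most of the gap in the leukocyte sum lay in 1 gene, *Cytip*. It had 69.8 CPM in PyMT *Pcbp1*–/– replicate 5 and 113 CPM in replicate 4, the next tumor. In the PyMT *Pcbp1*+/+ group, replicate 1 stood above the rest in basal epithelial markers (1246 CPM, next 455.0 CPM) and replicate 3 in adipocyte markers (189.9 CPM, next 74.45 CPM). PyMT *Pcbp1*+/+ replicate 5, low for most members, did not meet this criterion for any member.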

How the results depend on the processing

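Of 148 values of the members under alternatives, 146 were negative, 137 kept their sign and their side of the threshold, and 9 passed it. The log2 fold change of *Aim2* reversed without PyMT *Pcbp1*+/+ replicate 3 (0.26) and without PyMT *Pcbp1*–/– replicate 4 (0.00301), and ranged from -0.41 to 0.26 with each tumor left out. The median of the members ranged from -1.43 to -0.85 with each tumor left out and was -0.87 with limma on log2(CPM + 1). Members called lower were 2 with DESeq2 and 4 with limma-voom and sample quality weights, and 0 to 2 with each tumor left out. Over all genes, 730 were lower and 486 higher with DESeq2, 1190 and 968 with limma-voom and sample quality weights, 191 and 69 with limma on log2(CPM + 0.1), and 144 to 389 and 41 to 187 with each tumor left out, beside 319 and 117 with edgeR on all tumors. The cause was not tested. The r of same-numbered deviations were 0.134, 0.0867, -0.079, -0.144 and 0.293, with 2 of 5 numbers matching best with their own. So few correlations cannot decide whether the replicate numbers pair the tumors. With the replicate block in 10 tumors, 118 genes were lower and 42 higher, and 0 members were called (edgeR, *Ifi202b* adjusted p = 0.0547). The sum over all PYHIN genes had a log2 fold change of -1.07, and the sum over the members, an alternative chosen after seeing the data, had -1.16.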
